A study of Homo sapiens with 15 samples.

Results

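Toll-like receptor 4 and the proteins that carry its signal were followed as 10 genes among the 57905 listed in RNA sequencing of SW480, an established human line from a colorectal cancer whose labelled cell type is intestinal epithelium. The 10 genes were taken by symbol: the receptor TLR4, its co-receptors LY96 and CD14, the adaptors MYD88, TIRAP and TICAM1, the kinases IRAK1, IRAK2 and IRAK4, and the ubiquitin ligase TRAF6. Each symbol had 1 row in the deposited table. All 10 passed the low-value filter of at least 0.5 FPKM in at least 3 of 12 libraries, which 17214 genes passed, although LY96 did so in 3 libraries only. FPKM scale the fragments of a gene by its transcript length and by the fragments mapped in the library.

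There were 4 groups of 3 libraries, all of SW480 cells. The control was wild-type cells exposed to PBS, and the LPS group was wild-type cells given lipopolysaccharide (LPS) at 1 µg/ml, both for 4 h. The PINT shRNA1 group carried a stable lentiviral short hairpin directed at the long non-coding RNA PINT and received no LPS. The PINT shRNA1+LPS group carried the same hairpin and received LPS at 1 µg/ml. The exposure was 4 h in both of these groups too. No labelled group carries a control hairpin, so the carriage of a lentiviral vector and the hairpin cannot be told apart. Nothing says that replicates were separate cultures, and p-values therefore measure the spread between these libraries, which may be technical.

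LPS, the glycolipid of the Gram-negative outer membrane, is passed by CD14 to MD-2, the protein encoded by LY96, which sits on TLR4. At the cell surface the receptor uses the bridging adaptor TIRAP to recruit MYD88, around which the kinases IRAK4, IRAK1 and IRAK2 assemble and pass the signal to TRAF6, while from endosomes it signals through TICAM1 (TRIF). Intestinal epithelium is known for holding little of TLR4 and MD-2.

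The targeted gene and the cell identity were checked first. LINC-PINT (ENSG00000231721), the gene of PINT, was at 2.51 to 2.88 FPKM in control and at 4.55 to 5.34 in the libraries labelled PINT shRNA1, and was higher there (log2 difference 0.81 ± 0.118 SE, limma adjusted p = 0.000592). It was at 1.91 to 2.82 in LPS and at 3.54 to 4.08 in PINT shRNA1+LPS, and was higher there too (0.61 ± 0.118, limma adjusted p = 0.00284). The check goes against the labels, so the groups are called only "the libraries labelled PINT shRNA1" or by that name, and no difference between them is attributed to a loss of PINT. The libraries with the hairpin label also listed more genes above 0 (30725 to 31961, against 27078 to 28430 without it). Epithelial markers were present in every library. Of the 11 leukocyte markers, 3 passed the filter, 6 were under 0.5 FPKM in all 12 libraries, and FCGR3A, a receptor for antibodies, was listed at 0 in all of them.

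Among the 10 genes, transcript levels in control cells spanned from under 0.3 to over 40 FPKM, a scale on which genes can be compared because it is per length. IRAK1 was far above the others at 44.2 ± 8.45 FPKM (SD, n = 3) and exceeded 92.2% of the tested genes. TRAF6 (8.18 ± 0.188 FPKM), TIRAP (7.71 ± 0.488) and MYD88 (7.06 ± 2.66) followed, and each overlapped the next over its 3 libraries. IRAK4 (7.05 ± 0.472) lay in the same range, its lowest library at 6.52 being above the highest of TLR4. TLR4 came next at 5.85 ± 0.445 FPKM, near the middle of the tested genes (51.1% lay below it). TICAM1 (3.97 ± 0.324) and IRAK2 (1.27 ± 0.186) were lower without overlap, as were the co-receptors CD14 (0.618 ± 0.131) and LY96 at the bottom of the order. The spread of MYD88 was such that its lowest control library overlapped TICAM1.

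**Figure D1:**
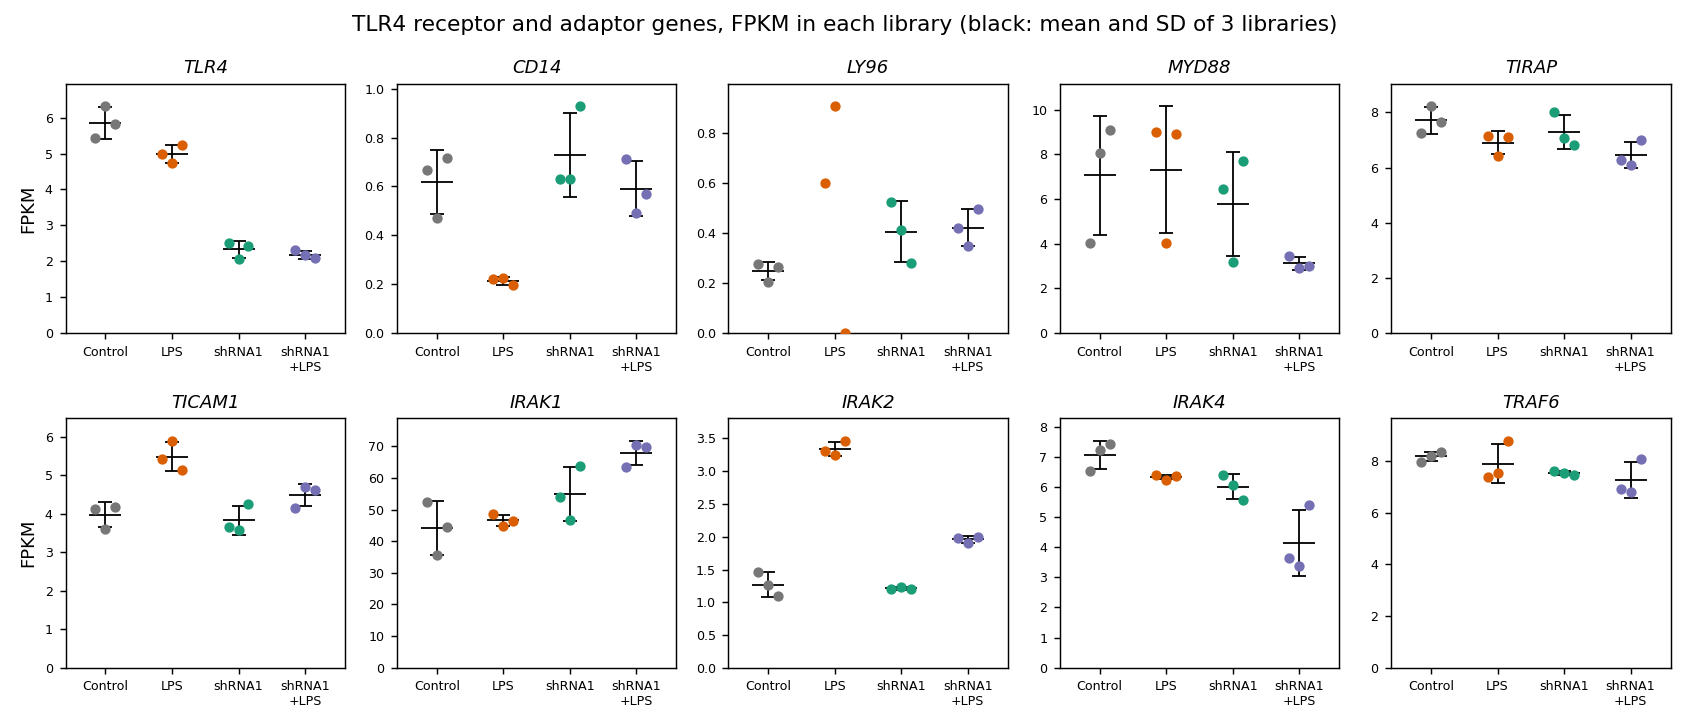
FPKM of the 10 genes in each of the 12 libraries, 1 panel a gene with its own linear axis from 0, and points coloured by group (control, LPS, shRNA1 for PINT shRNA1 and shRNA1+LPS for PINT shRNA1+LPS). Black bars give the mean and SD of 3 libraries and are left out for LY96 in LPS, where 1 library is listed at 0; TLR4 is low in all 6 libraries with the hairpin label, and IRAK2 is highest in the 3 LPS libraries.

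TLR4 was set beside the rest of its family. Of the 10 Toll-like receptors, 7 stayed under 0.5 FPKM in all 12 libraries, with a highest single value of 0.148 FPKM. TLR2, the receptor for bacterial lipopeptides, was at 2.39, 1.95 and 2.30 FPKM in control, below every control value of TLR4. In the libraries labelled PINT shRNA1, TLR2 was at 2.86, 2.57 and 2.38 FPKM, which overlapped TLR4 at 2.51, 2.07 and 2.42. In PINT shRNA1+LPS the order was turned, with TLR2 at 2.50 to 2.66 FPKM and TLR4 at 2.08 to 2.30. TLR2 itself was not called in any comparison between groups: its log2 difference was 0.20 ± 0.108 in PINT shRNA1 over control (limma adjusted p = 0.212). TLR3, the receptor for double-stranded RNA, was the only other member of the family to pass the filter, at 0.730 to 0.735 FPKM in control.

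**Figure D2:**
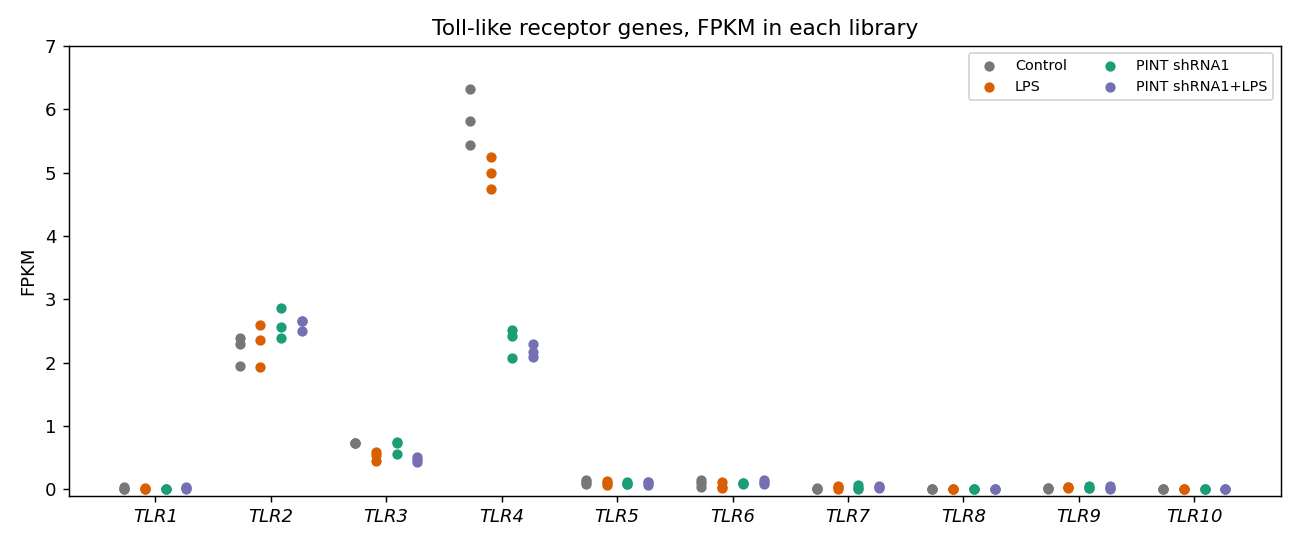
FPKM of the Toll-like receptors in the 12 libraries (linear axis). TLR4 is the highest of the family in the 6 libraries without the hairpin label, TLR2 lies among or above it in the 6 with the label, and 7 of the 10 receptors stay under 0.5 FPKM throughout.

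IRAK2 and TICAM1 were called higher with LPS, TICAM1 close to the threshold, and TLR4 was called lower with the hairpin label. The promoters of these 3 genes are shown so that the letters can be read beside the values. Each is 300 bases, from 250 before to 50 after the gene's start, taken from RefSeq on GRCh38.p14, a later build than that named for the expression values. They lie at chr3:10164669-10164968 on the plus strand (IRAK2), chr19:4831663-4831962 on the minus strand (TICAM1) and chr9:117704153-117704452 on the plus strand (TLR4). Letters are in lower case, and capitals mark matches to the motifs named in the paragraph after them.
IRAK2: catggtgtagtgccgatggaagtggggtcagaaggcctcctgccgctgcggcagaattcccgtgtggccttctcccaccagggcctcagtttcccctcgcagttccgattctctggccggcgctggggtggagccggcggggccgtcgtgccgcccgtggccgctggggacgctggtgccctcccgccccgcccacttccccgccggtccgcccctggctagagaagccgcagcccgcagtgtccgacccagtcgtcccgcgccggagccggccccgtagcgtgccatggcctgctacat
TICAM1: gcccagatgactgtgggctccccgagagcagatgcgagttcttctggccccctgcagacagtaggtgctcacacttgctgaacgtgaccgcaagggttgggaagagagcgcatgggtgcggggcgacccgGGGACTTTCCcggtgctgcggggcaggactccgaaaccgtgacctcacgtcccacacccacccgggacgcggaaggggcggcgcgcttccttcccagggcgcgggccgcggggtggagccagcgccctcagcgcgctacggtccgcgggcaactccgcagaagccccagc
TLR4: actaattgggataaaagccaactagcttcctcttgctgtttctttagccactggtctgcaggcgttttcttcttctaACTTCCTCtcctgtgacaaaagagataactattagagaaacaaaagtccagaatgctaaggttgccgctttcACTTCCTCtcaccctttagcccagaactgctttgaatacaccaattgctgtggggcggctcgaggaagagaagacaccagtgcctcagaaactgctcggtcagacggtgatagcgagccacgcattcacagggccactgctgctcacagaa

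A promoter was at hand for 8 of the 10 genes. On either strand, the kappaB core GGACTTTCC, a sequence bound by NF-kB, was in 102 of 27305 promoters (0.374%), and of the 8 only in that of TICAM1, at position -119 from the start. The degenerate kappaB consensus, which overlaps that core in TICAM1 and begins at -120, was in 10.8% of promoters, and of the 8 in those of TICAM1 and IRAK1. The core GAGGAAGT, bound by the blood-cell factor PU.1, was in 2.54% of promoters and of the 8 only in that of TLR4, where it lies on the minus strand at -173 and -101. The IRAK2 window held none of these letters. These matches describe the sequence and are no measure of binding.

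LPS against control asks how cells without the hairpin label responded over 4 h. Among the 10 genes the calls were a rise of IRAK2, a smaller rise of TICAM1 and a fall of CD14. Of the 10 genes, 2 were called higher and 1 lower, beside 2.76% of the 17214 genes tested (1.57% higher and 1.19% lower). A gene was called at a limma adjusted p under 0.05. The median log2 difference of the 10 was -0.0043, and that of all genes tested was -0.038. After median scaling the calls over all genes split into 440 higher and 116 lower, against 271 and 204 as deposited.

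IRAK2 (ENSG00000134070), a kinase known for sustaining the signal, was at 1.46, 1.26 and 1.09 FPKM in control and at 3.31, 3.25 and 3.46 in LPS. Every LPS library was far above every control library, and the mean was 2.63 times that of control. The log2 difference was 1.12 ± 0.0883 (limma adjusted p = 5.64e-05), which placed IRAK2 at rank 25 of all genes by p. The call held in 21 of 21 alternative analyses.

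TICAM1 (ENSG00000127666), the adaptor of the endosomal branch, was at 4.12, 3.60 and 4.19 FPKM in control and at 5.42, 5.89 and 5.13 in LPS. The groups did not overlap, and the log2 difference was 0.42 ± 0.0892 (limma adjusted p = 0.0342). CD14 (ENSG00000170458), which hands LPS to the receptor, was at 0.668, 0.470 and 0.717 FPKM in control and at 0.221, 0.225 and 0.196 in LPS. All 3 LPS libraries lay under 0.23 FPKM, at levels below the filter's minimum, and the log2 difference of CD14 was -0.64 ± 0.139 (limma adjusted p = 0.0371). Both calls were close to the threshold. That of TICAM1 was lost in 12 of 21 alternatives, among them those that left out any 1 of control replicates 1, 2 or 3, LPS replicates 1, 2 or 3, PINT shRNA1 replicate 1 or PINT shRNA1+LPS replicates 2 or 3 (adjusted p from 0.0501 to 0.104). That of CD14 was lost in 14 of 19, among them those that left out any 1 of control replicates 1 or 3, LPS replicates 1, 2 or 3, PINT shRNA1 replicates 1 or 2 or PINT shRNA1+LPS replicates 1, 2 or 3 (adjusted p from 0.052 to 0.105).

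The receptor and the other genes were not called with LPS. TLR4 (ENSG00000136869) was at 5.43, 6.32 and 5.81 FPKM in control and at 5.00, 4.74 and 5.24 in LPS, and its log2 difference was -0.21 ± 0.0846 (limma adjusted p = 0.243). TIRAP and IRAK4 were, like TLR4, lower in every LPS library than in any control library, at -0.15 ± 0.0809 and -0.14 ± 0.133 (limma adjusted p = 0.392 and 0.642). These non-overlapping differences were small, and none of them reached the threshold. LY96 (ENSG00000154589) was at 0.274, 0.205 and 0.263 FPKM in control and at 0.599, 0.905 and 0 in LPS, so that its LPS libraries lay on both sides of the control (limma adjusted p = 0.674). For IRAK1 the 95% interval of the log2 difference was -0.20 to 0.39, and for TRAF6 it was -0.22 to 0.12.

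MYD88 (ENSG00000172936), the adaptor shared by most Toll-like and IL-1 family receptors, varied more within control and within LPS than between them. It was at 4.04, 8.07 and 9.07 FPKM in control and at 8.99, 4.04 and 8.92 in LPS. In each group 1 library was under 5 FPKM and the other two were at 8 or more. PINT shRNA1 also had 1 library far below its others, at 6.46, 3.20 and 7.71 FPKM, whereas PINT shRNA1+LPS gave 3.43, 2.92 and 3.00, all low. The SD of log2 values was 0.58 in control, 0.61 in LPS and 0.61 in PINT shRNA1, beside medians over all genes of 0.128, 0.128 and 0.108. In PINT shRNA1+LPS it was 0.11, beside 0.0868. The 95% interval of the MYD88 difference for LPS against control was -0.78 to 0.86, so a sizeable change either way lies within it.

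PINT shRNA1 against control compares cells without LPS. TLR4 was the 1 gene of the 10 that was called: it fell. None was called higher, beside 27.3% of genes tested that were called (16.9% higher and 10.3% lower). The median log2 difference of the 10 was -0.061 and that of all genes 0.057. Median scaling gave 2215 higher and 2151 lower over all genes, against 2913 and 1780 as deposited. TLR4 was at 5.43 to 6.32 FPKM in control and at 2.51, 2.07 and 2.42 in the libraries labelled PINT shRNA1, with means of 5.85 ± 0.445 and 2.33 ± 0.232 (SD, n = 3). The highest of the latter libraries was under every control library, and the mean was 0.399 times that of control. The log2 difference was -1.17 ± 0.0846 (limma adjusted p = 5.47e-06), and the call held in 21 of 21 alternatives. In share of tested genes below it, TLR4 went from 51.1% to 32.8%.

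The 8 epithelial markers, summed, were at 2346 to 2671 FPKM in control and 1444 to 1542 in the libraries labelled PINT shRNA1, a sum carried by KRT8, KRT18, KRT19 and EPCAM. These 4 and VIL1 were called lower, CDX2, an intestinal transcription factor, was called higher (0.38 ± 0.0959, limma adjusted p = 0.0139), and CDH1 (-0.02) and CLDN4 (0.08) were not called. The sum of the 11 leukocyte markers was 2.93 to 4.06 FPKM in control libraries and lay between 3.85 and 6.17 in PINT shRNA1, and CD68, a lysosomal protein abundant in macrophages, was called higher (0.64 ± 0.121, limma adjusted p = 0.00295). The other two tested markers were not called: LYZ, lysozyme, gave -0.43 ± 0.212 (limma adjusted p = 0.164), and ITGAM gave 0.13 ± 0.147 (0.557). The part of these markers in the TLR4 result was not tested. In bulk RNA fewer cells that carry a transcript and less of it per cell cannot be told apart.

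The remaining genes gave smaller differences in this comparison. IRAK1 (ENSG00000184216) was at 52.5, 35.6 and 44.3 FPKM in control and at 54.0, 46.8 and 63.8 in PINT shRNA1, groups that overlapped, with a log2 difference of 0.32 ± 0.133 (limma adjusted p = 0.104). Without control replicate 1 the IRAK1 difference was 0.45 and was called (limma adjusted p = 0.0278), and without PINT shRNA1 replicate 2 it was 0.42 and was called (0.0498). TRAF6 was at 7.98 to 8.35 FPKM in control and at 7.45 to 7.61 in PINT shRNA1. The TRAF6 groups did not overlap, but the log2 difference was -0.11 ± 0.0785 (limma adjusted p = 0.331). IRAK4 was also lower without overlap, at 6.52 to 7.41 FPKM in control libraries and 5.57 to 6.39 in the others (-0.21 ± 0.133, limma adjusted p = 0.267). LY96 was higher without overlap, at 0.205 to 0.274 and 0.278 to 0.523 FPKM (0.27 ± 0.302, limma adjusted p = 0.557). CD14 (0.13), MYD88 (-0.27), TIRAP (-0.07) and TICAM1 (-0.05) overlapped between the groups, with limma adjusted p from 0.518 to 0.742. IRAK2, the strongest responder to LPS, was at 1.19, 1.23 and 1.20 FPKM in PINT shRNA1, inside its control range, with a 95% interval of -0.24 to 0.15.

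PINT shRNA1+LPS against LPS compares the hairpin label among cells that all received LPS. Here 6 of the 10 genes were called: TLR4, IRAK2, IRAK4 and TICAM1 fell, and CD14 and IRAK1 rose. Over all genes 29.2% were called (17.7% higher and 11.6% lower). The median log2 difference of the 10 was -0.19, and that of all genes was 0.053. With median scaling the split over all genes was 2349 higher and 2530 lower, against 3039 and 1994. This comparison shares the LPS libraries with LPS against control, so a high or low LPS value enters both, with opposite sign.

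TLR4 was at 5.00, 4.74 and 5.24 FPKM in LPS and at 2.30, 2.17 and 2.08 in PINT shRNA1+LPS, a log2 difference of -1.03 ± 0.0846 (limma adjusted p = 1.11e-05). Its libraries did not overlap, and the mean was 0.437 times that of LPS. CD14 was at 0.221, 0.225 and 0.196 FPKM in LPS and at 0.713, 0.490 and 0.569 in PINT shRNA1+LPS, a difference of 0.61 ± 0.139 (limma adjusted p = 0.00778). The CD14 values of PINT shRNA1+LPS lay inside the range of the control libraries. LY96 was at 0.419, 0.346 and 0.496 FPKM, between the LPS library listed at 0 and the other two, and the 95% interval of its difference ran from -0.67 to 0.67.

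Among the adaptors, TICAM1 was at 5.42, 5.89 and 5.13 FPKM in LPS and at 4.15, 4.70 and 4.61 in PINT shRNA1+LPS. Its groups did not overlap, and the log2 difference was -0.26 ± 0.0892 (limma adjusted p = 0.0484). The TICAM1 call was lost in 12 of 21 alternatives, among them those that left out any 1 of control replicates 1 or 3, LPS replicates 1 or 2, PINT shRNA1 replicates 1 or 2 or PINT shRNA1+LPS replicates 1, 2 or 3 (adjusted p from 0.053 to 0.162). MYD88 had a log2 difference as large as that of TLR4, -1.04 ± 0.371, but was not called (limma adjusted p = 0.058), and its LPS libraries spread from 4.04 to 8.99 FPKM. It was called in 6 of 21 alternatives, among them without control replicate 1 (adjusted p = 0.0384), without LPS replicate 2 (0.0182) and without PINT shRNA1 replicate 2 (0.0366). TIRAP was at 6.43 to 7.15 FPKM in LPS and at 6.10 to 6.99 in PINT shRNA1+LPS, and the groups overlapped.

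The kinases went different ways. IRAK4 (ENSG00000198001), the first kinase of the complex, was at 6.38, 6.24 and 6.37 FPKM in LPS and at 3.64, 3.37 and 5.39 in PINT shRNA1+LPS, a log2 difference of -0.58 ± 0.133 (limma adjusted p = 0.0074). Replicate 3 of PINT shRNA1+LPS lay well above the other two, yet still under every LPS library. IRAK1, the kinase that IRAK4 activates, was at 48.5, 44.9 and 46.4 FPKM in LPS and at 63.6, 70.4 and 69.7 in PINT shRNA1+LPS, a difference of 0.54 ± 0.133 (limma adjusted p = 0.0114). IRAK2 was at 3.31, 3.25 and 3.46 FPKM in LPS and at 1.98, 1.90 and 2.00 in PINT shRNA1+LPS, a difference of -0.64 ± 0.0883 (limma adjusted p = 0.000382). Each of these 3 calls held in 21 of 21 alternatives. TRAF6, to which the kinases pass the signal, was at 7.40 to 8.77 FPKM in LPS and at 6.79 to 8.07 in PINT shRNA1+LPS and overlapped.

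Other values moved with the same groups. Depth relative to the first control library, recovered from ratios of low values, was 0.848 to 0.858 in LPS and 1.3 to 1.51 in PINT shRNA1+LPS. The epithelial marker sum was 2368 to 2417 FPKM in LPS and 1549 to 1609 in PINT shRNA1+LPS, with 6 of 8 markers called lower, CDX2 called higher and CDH1 not called. The leukocyte marker sums, 3.28 to 4.11 and 3.74 to 4.54 FPKM, overlapped, while CD68 was called higher (0.63 ± 0.121, limma adjusted p = 0.00285). LYZ was at 1.59 to 2.19 FPKM in LPS and at 1.19 to 1.29 in PINT shRNA1+LPS, without overlap and not called (-0.46 ± 0.212, limma adjusted p = 0.132), and neither was ITGAM (0.26 ± 0.147, 0.219). Their part in the results for TLR4, CD14 and the kinases was not tested.

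**Figure D3:**
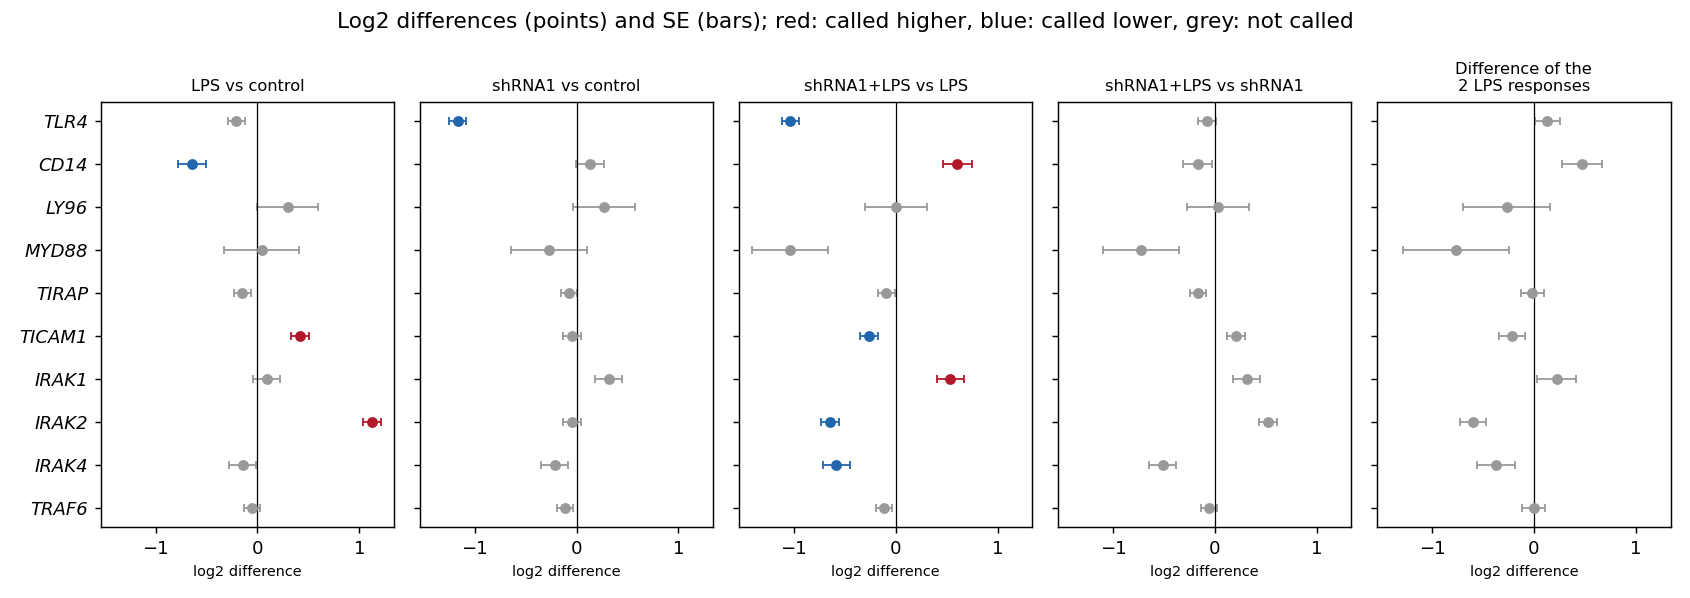
Log2 differences of the 10 genes between groups on the log2(FPKM + 0.5) scale, with bars of ± 1 SE from the limma fit. TLR4 lies near -1 in both comparisons across the hairpin label, and IRAK2 lies near 1 for LPS against control and below 0 for PINT shRNA1+LPS against LPS.

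PINT shRNA1+LPS against PINT shRNA1 gives the LPS response among cells with the hairpin label. None of the 10 genes was called in this comparison by limma, beside 0.186% of all genes called. An unadjusted p under 0.05 was reached by 4 of the 10 and by 8.76% of all genes. IRAK2 was the nearest to a call. It was at 1.19, 1.23 and 1.20 FPKM without LPS and at 1.98, 1.90 and 2.00 with it, 1.62 times the mean, a log2 difference of 0.52 ± 0.0883 (limma adjusted p = 0.0544). The groups did not overlap, and the difference was called in 6 of 21 alternatives. IRAK4 gave -0.51 ± 0.133 (limma adjusted p = 0.249), with its 3 PINT shRNA1+LPS libraries below the 5.57 to 6.39 FPKM of PINT shRNA1. Without replicate 3 of PINT shRNA1+LPS the IRAK4 difference was -0.70 and was called (limma adjusted p = 0.0177). TLR4 was at 2.07 to 2.51 FPKM before and at 2.08 to 2.30 after LPS, and TICAM1 gave 0.21 ± 0.0892 (limma adjusted p = 0.54). IRAK1 gave 0.31 ± 0.133 (limma adjusted p = 0.529) and MYD88 -0.72 ± 0.371 (0.623). CD14 (-0.17), TIRAP (-0.17), TRAF6 (-0.05) and LY96 (0.03) overlapped between the groups, with limma adjusted p of 0.605 or more.

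Whether the response to LPS differed between the cells was tested by the interaction, the response with the hairpin label minus that without it. None of the 10 genes was called by limma, beside 0.128% of all genes called. An unadjusted p under 0.05 was reached by 2 of the 10 and by 7.74% of all genes. For IRAK2 the interaction was -0.60 ± 0.125, with a 95% interval of -0.87 to -0.32 (limma adjusted p = 0.173). That is, IRAK2 was higher by 1.12 with LPS in one case and by 0.52 in the other, and the difference of these responses did not pass the adjustment over all genes, with adjusted p from 0.0855 to 0.429 over the alternatives. CD14 gave 0.47 ± 0.197 (limma adjusted p = 0.615). The interval for TLR4, -0.13 to 0.40, covered 0, as did those of the other 7 genes, whose values were -0.76 for MYD88, -0.37 for IRAK4, -0.27 for LY96, -0.21 for TICAM1, 0.22 for IRAK1, -0.017 for TIRAP and -0.0036 for TRAF6.

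The wider pathway was read from lists of related genes. Of 18 enzymes and factors downstream of TRAF6 and TICAM1, all tested, LPS against control gave 2 higher and none lower, beside 1.57% of all genes higher and 1.19% lower, with a median of 0.084 beside -0.038 over all genes. These were TRAF3, a ubiquitin ligase of the TICAM1 branch, at 18.2 to 19.1 FPKM in control and 23.6 to 23.8 in LPS (0.34 ± 0.0381, limma adjusted p = 7e-04), and IKBKE, a kinase that activates IRF3, at 9.07 to 9.38 and 11.9 to 13.6 (0.45 ± 0.0606, adjusted p = 0.00257). Neither gene's groups overlapped. In PINT shRNA1 against control, UBE2N, the ubiquitin-conjugating partner of TRAF6, TAB3 and TBK1 were called higher (0.31, 0.20 and 0.13), and IKBKE was called lower (-0.21). In PINT shRNA1+LPS against LPS, PELI2 was called higher (0.40), and RIPK1 (-0.41), IKBKE (-0.38) and TRAF3 (-0.21) were called lower. In each of these comparisons 4 of the 18 were called, beside 27.3% and 29.2% of all genes, and the medians of the list were 0.069 and 0.095, beside 0.057 and 0.053 over all genes.

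Inhibitors of the pathway gave 2 higher and none lower of 10 tested with LPS, beside the same 1.57% and 1.19% of all genes, with a median of 0.035 beside -0.038. TNFAIP3, the ubiquitin-editing enzyme A20 that acts on TRAF6, was at 8.52, 6.91 and 7.50 FPKM in control and at 13.8, 13.7 and 14.6 in LPS (0.84 ± 0.079, limma adjusted p = 0.000202). CYLD, a deubiquitinase, gave 0.35 ± 0.0709 (limma adjusted p = 0.0267). TNFAIP3 was also the 1 gene of the lists called for PINT shRNA1+LPS against PINT shRNA1, at 6.62 to 7.77 and 11.0 to 11.4 FPKM (0.62 ± 0.079, limma adjusted p = 0.00965). It was thus 1 of the 10 tested inhibitors, beside 0.186% of all genes called in that comparison. TNFAIP3 and CYLD were called lower in PINT shRNA1+LPS than in LPS (-0.32 and -0.41), and TRAFD1 was called higher in PINT shRNA1 than in control (0.33). These were 2 of 10 and 1 of 10, beside 29.2% and 27.3% of all genes. Here too the LPS libraries enter both sets of values.

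Of 15 other Toll-like and IL-1 family receptors, 4 were tested and 1 was called with LPS, beside 2.76% of all genes, with a median of 0.037. This was IL18R1, the receptor chain for interleukin-18, which also signals through MYD88, at 0.477, 0.499 and 0.428 FPKM in control and at 1.20, 1.21 and 1.03 in LPS (0.77 ± 0.0955, limma adjusted p = 0.00143). It was at 0.733 to 0.751 FPKM in PINT shRNA1+LPS, lower than in LPS (-0.41 ± 0.0955, limma adjusted p = 0.00889). Of the 9 genes of LPS transfer and receptor folding, 5 were tested and none was called with LPS. CNPY3, a chaperone that Toll-like receptors need to reach the surface, was at 11.6 to 12.8 FPKM in LPS and at 14.2 to 15.6 in PINT shRNA1+LPS, higher there (0.30 ± 0.0632, limma adjusted p = 0.00531). Of the 5 genes of cytosolic LPS sensing, 2 were tested, and GSDMD, the pore-forming protein of pyroptosis, was called lower in PINT shRNA1+LPS than in LPS (-0.44 ± 0.117, limma adjusted p = 0.0166). In that comparison 1 gene of each of these 3 lists was called, beside 29.2% of all genes.

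Genes whose pattern over the 12 libraries was most like that of TLR4, IRAK2 or CD14 were found by Pearson correlation of log2(FPKM + 0.5) among tested genes that averaged 1 FPKM or more. The libraries share the 4 groups, so these values describe shared group levels. For TLR4 they were OSTM1 (r = 0.994), KIAA0754 (0.993), ZFHX3 (0.991), MAPK13 (0.990) and PSAT1 (0.990). PSAT1, an enzyme of serine synthesis, was at 117 to 120 FPKM in control libraries, and the PINT shRNA1 libraries lay at 39.2 to 42.5. For IRAK2 they were CCL2 (0.992), SDC4 (0.990), SGPP2 (0.984), CACNG8 (0.979) and SHB (0.978). CCL2 is a chemokine that draws monocytes. It was at 16.7 to 19.8 FPKM in control, 59.6 to 62.2 in LPS and 31.0 to 33.5 in PINT shRNA1+LPS. The order of these groups was that of IRAK2, for likeness to which CCL2 had been picked. The libraries labelled PINT shRNA1 held CCL2 at 17.5 to 19.3 FPKM, inside its control range. Their CCL2 mean was above that of control (18.3 against 17.8 FPKM), whereas their IRAK2 mean was below it (1.21 against 1.27). For CD14 the highest were RIMKLA (0.926) and CROT (0.922), lower than the values for TLR4 and IRAK2. The group means of CD14 were 0.214 to 0.730 FPKM, so genes at its own level were not among those compared.

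**Figure D4:**
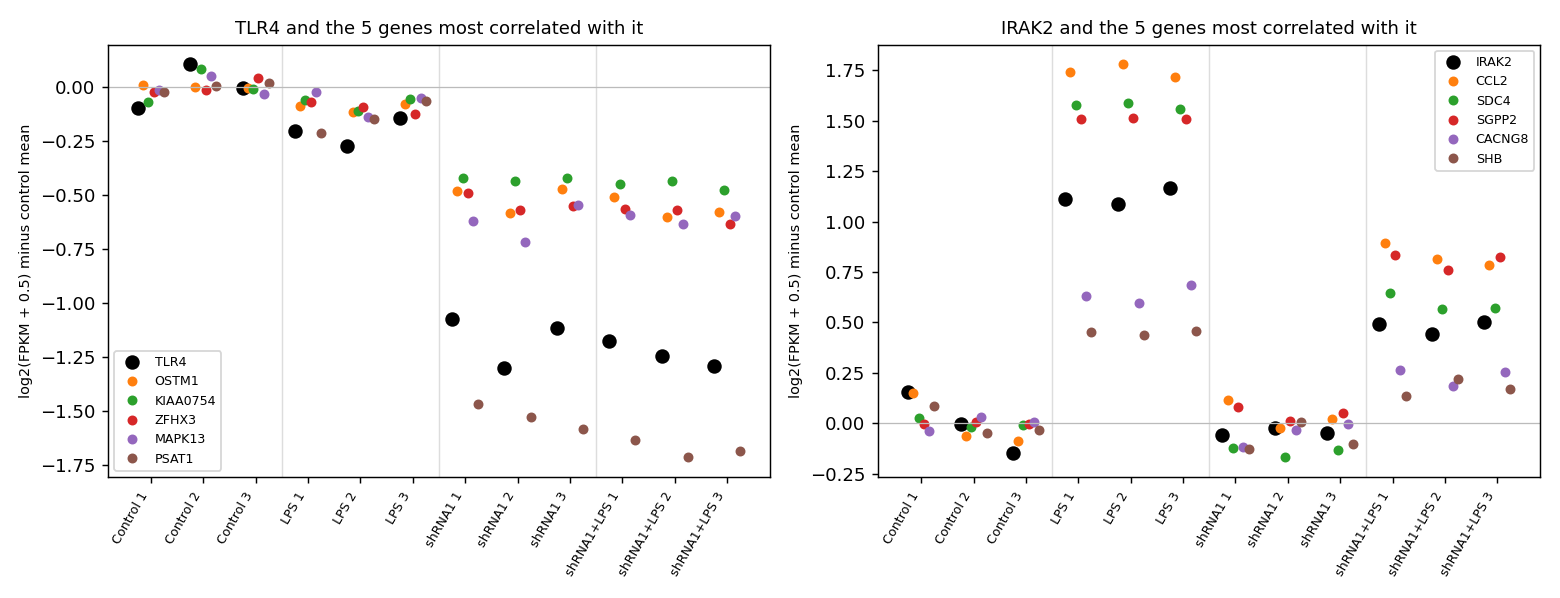
Log2(FPKM + 0.5) minus the control mean in the 12 libraries for TLR4 (left) and IRAK2 (right), each with the 5 genes of highest Pearson correlation. In the left panel all 6 genes are low in the libraries with the hairpin label, and in the right panel all 6 are highest in LPS and intermediate in PINT shRNA1+LPS.

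TIRAP values carry a limit of annotation. In GENCODE 29, on a later build than that of the values, TIRAP is overlapped by the antisense gene models AP001318.1 and AP001318.2. The overlaps cover 1333 and 4548 bases, and AP001318.2 was at 1.27 to 2.57 FPKM. Whether strand was used in the quantification is not given in the sources used here. If it was not, reads of TIRAP and of these models cannot be told apart where they overlap. TLR4 shares 20556 bases with a model on the same strand, AL160272.2, for which there are no values here. It also shares 107 bases with RNU6-1082P on the other strand, and IRAK1 shares 61 with MIR718 on the same strand. MYD88 has no such overlap.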

How the data were processed

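RNA of SW480 cells was sequenced on an Illumina instrument, per the labels' protocols. The authors deposited FPKM per Ensembl gene in 1 table. Per the submitters' processing notes, the tools were StringTie 1.3.4d, HISAT2 2.1.0 and fastp and the build was hg19 (GRCh37); roles are not given. The labels list 15 samples in the 4 groups, 6 of them PINT shRNA1, whereas the table has 3 columns for that group, matched to the group only. Another 6 columns of per-sample values were not used. Absolute depth is unknown from FPKM, so no counting error is given.

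The deposited FPKM were put on a log2 scale after adding 0.5 and fitted with limma 3.58.1 (R 4.3.3). A fold change on this scale understates the change of low genes. A minimum of 0.5 FPKM in 3 or more libraries left 17214 genes, which entered 1 group-means fit of all 12 libraries, with an intensity trend. Contrasts were two-sided, Benjamini-Hochberg adjusted over all genes of the contrast and called at 0.05. The share of all genes without overlap between groups was not computed, so statements of no overlap only describe the libraries. The fit was tested on simulated data. Among genes over 1 FPKM, no pair of libraries shared an identical value (0% of genes), and correlations within a group were 0.982 to 0.991.

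All 10 genes are named in every contrast, with list genes by smallest p (all called genes where 5 or fewer) and the 5 genes most correlated with TLR4, IRAK2 and CD14. The genes and lists were chosen with earlier results of these data known. OTULIN and PECAM1 did not match a symbol. Alternatives were other pseudocounts, filters, scalings, no trend, a replicate block, only the groups compared, and leaving out each library.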

Additional observations from a re-analysis of the deposited data

How the results depend on the processing

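Across 21 alternatives (20 for the interaction), the calls of TLR4, of IRAK1, IRAK2 and IRAK4 in PINT shRNA1+LPS against LPS, and of IRAK2 in LPS against control held throughout. For LPS against control, 3 of the members and 475 of all genes were called. Without the low-value filter, with a replicate block and in a fit of only the groups compared, 1 member was called, beside 372, 311 and 129 genes. Leaving out 1 library gave 1 to 3 members, beside 288 to 411 genes. For PINT shRNA1 against control, leaving out 1 library gave 1 to 2 members, where the main fit called 27.3% of all genes. In PINT shRNA1+LPS against LPS the CD14 call held in all 19 alternatives that fitted it. For PINT shRNA1+LPS against PINT shRNA1, the main fit called 0 members and 0.186% of all genes, and leaving out 1 library gave 0 to 1 members. There, 1 member was called with a filter of 1 FPKM, median scaling, quantile normalization and no intensity trend. Deviations of same-numbered libraries from their group means had correlations of -0.0476 to 0.0569 over 18 pairs. Of 12 libraries, 4 correlated best with their own number. Whether same-numbered libraries shared a culture or a day was not tested.

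Over all genes, the 475 calls for LPS against control became 311 with the replicate block and 129 in the fit of only the groups compared. Leaving out control replicate 2 gave 295 genes, and leaving out LPS replicate 3 gave 288. The 32 genes of PINT shRNA1+LPS against PINT shRNA1 became 59 with median scaling and 57 with quantile normalization, 18 without the intensity trend, 17 with the replicate block and 19 to 21 without replicate 1 or 2 of either group, and the 22 of the interaction became 14 with the replicate block.

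Several signs turned, none of them in a called difference. For TRAF6 these were 0.0020 with median scaling (LPS against control) and 0.0051 with quantile normalization (interaction). For LY96 in PINT shRNA1+LPS against LPS they were -0.031 with a pseudocount of 1, -0.052 with median scaling and -0.13 with quantile normalization. Leaving out 1 library gave ranges that cross 0: in LPS against control, -0.29 to 0.39 for MYD88 and -0.051 to 0.23 for IRAK1; in PINT shRNA1 against control, -0.60 to 0.072 for MYD88 and -0.12 to 0.033 for IRAK2; in PINT shRNA1+LPS against LPS, -0.44 to 0.061 for LY96; in PINT shRNA1+LPS against PINT shRNA1, -0.074 to 0.090 for LY96; and in the interaction, -0.072 to 0.047 for TIRAP and -0.077 to 0.069 for TRAF6. The cause was not tested. LY96 could be fitted in 16 of the alternatives, since other filters or a left-out library removed it, and CD14 in 19 or 20. FPKM carry no absolute depth, so the counting error of these low genes is unknown.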
